A study of Mus musculus with 502 samples.

Results

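The 46 genes described here are those of the mouse proteasome, chosen by name from the 46603 gene rows of the count table: every gene called Psma, Psmb, Psmc, Psmd, Psme, Psmf or Psmg with a number, without Psmb8 and Psmb9. The measurement was single-cell RNA sequencing of 502 immune cells, each sorted as Cd45+ and propidium iodide negative from kidneys of CD1 mice of about 3 weeks, an outbred stock with no transgene or gene deletion named in the labels. Fresh kidneys were dissociated at once, and the others were first kept intact at 4 °C in HTS-FRS, an organ transplant preservative, for 6 hours or for 1, 2, 3 or 4 days. By the study's methods the kidneys of a time point came from 1 mouse, both kidneys up to day 2 and partial kidneys at days 3 and 4, and the labels name no animal, so cells were not treated as replicates and nothing was tested between times.

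Each cell was placed in a set by its preservation time and by the pool number in its title. Pool IM793 held 75 fresh cells, 76 kept 6 hours, 78 kept to day 2 and 2 kept to day 4. Pool IM834 held 81 fresh, 75 day 1, 82 day 3 and 19 day 4 cells, and pool IM790 held 14 cells of day 4. A time point cannot be told apart from its mouse and sort, and times of different pools cannot be told apart from the pool, so preserved cells were compared with fresh cells of the same pool. Fresh and day 4 were the only times found in more than 1 pool. Counts on genes ran from 1759 to 1895431 per cell with a median of 695188, and 18S rRNA took 6.60% of them.

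The proteasome is the barrel-shaped protease that degrades proteins tagged with ubiquitin. Its 20S core has outer rings of alpha subunits and inner rings of beta subunits, some of them catalytic, while the 19S cap recognises, unfolds and feeds in substrates with a ring of ATPases. In immune cells, interferon replaces the catalytic subunits with Psmb8, Psmb9 and Psmb10 to form the immunoproteasome and raises the activator PA28, built from Psme1 and Psme2, which shapes the peptides shown on MHC class I.

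Reads fell on 45 of the 46 genes, for 2050355 counts or 0.591% of all gene counts. Psmb11, the catalytic subunit of thymic epithelium, had no read in 502 cells, and a floor of 3 cells in 502 allows a share of up to 0.598% of cells with a read (exact Clopper-Pearson upper limit 0.732%). Psma8, the alpha subunit of male germ cells, was read in 6 cells, and 47.4% of its 3549 counts lay in 1 of them. Each of the other 44 genes was read in at least 36 cells.

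Levels of different genes were compared as CPM (gene counts scaled to a fixed library total) per kilobase of exon, summed over all cells. Psme2 stood highest at 213.03 and Psme1 next at 190.6 CPM per kb. These genes, on chr14:55587441-55591113 and chr14:55578123-55581529 of GRCm38, were read in 325 and 315 of the 502 cells. By contrast Psme3 (PA28 gamma, a nuclear activator) reached 17.1 and Psme4 (PA200) 3.34 CPM per kb, and the inhibitor Psmf1 (PI31) 7.83. The 8 alpha subunits had a median of 66.7 CPM per kb, from 4.10 for Psma8 to 147.1 for Psma6, and the 4 non-catalytic beta subunits ran from 47.6 for Psmb1 to 145.3 for Psmb2. The cap lay lower, at medians of 46.6 for the 6 ATPases Psmc1 to Psmc6 and 31.9 for 11 non-ATPase subunits. The lowest medians among these groups belonged to the chaperones that build the particle, 11.4 for Psmd5, Psmd9 and Psmd10 of the cap and 22.8 for Psmg1 to Psmg4 of the core.

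**Figure D1:**
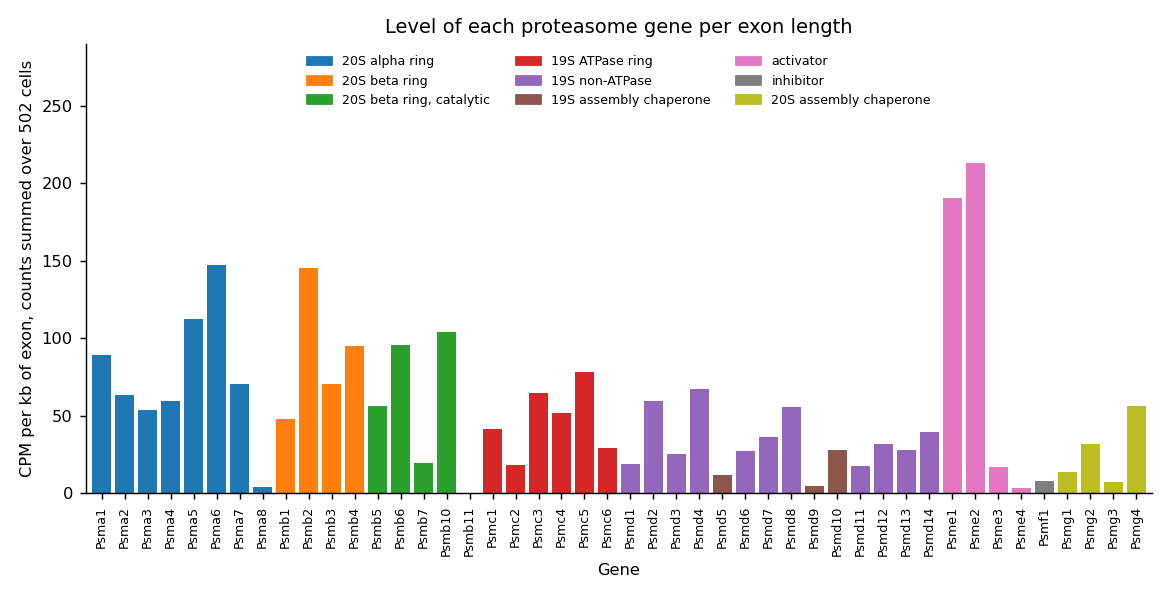
Bars show CPM per kilobase of exon for each of the 46 genes, summed over 502 cells and coloured by role. Psme2 at 213.03 and Psme1 at 190.6 stand above the core and cap subunits, and Psmb11 has no read.

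Among catalytic subunits, Psmb10, which takes the place of Psmb7 in the immunoproteasome, was at 104.1 CPM per kb and was read in 41.2% of cells, while Psmb7 was at 19.2 and was read in 24.1% of cells. Without the scaling by length they were at 177.6 and 65.7 CPM, over 1705 and 3421 exon bases. Psmb6 was at 95.6 and Psmb5, the chymotrypsin-like subunit, at 56.3 CPM per kb. Of the 502 cells, 71 had reads of both Psmb7 and Psmb10, and 50 of Psmb7 alone. For comparison, Psmb8 and Psmb9, which are outside the 46 genes, were at 230.97 and 72.1 CPM per kb. The exons of Psmb7 share 11.8% of their length with Nek6 and those of Psmb5 12.1% with Mir686, and reads in such stretches could be assigned to neither gene alone, since strand was ignored in counting.

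The promoters of Psmb5 and Psmb6 are printed as the 2 among the windows listed for catalytic subunits that carry the core of the antioxidant response element, TGACNNNGC, the kind of site through which Nfe2l1 and Nfe2l2 act on proteasome genes. They are RefSeq windows on GRCm38.p6 from 250 bases before to 50 after the gene start, at chr14:54617946-54618245 on the minus strand and chr11:70525107-70525406 on the plus strand, with the matching letters in capitals.
Psmb5: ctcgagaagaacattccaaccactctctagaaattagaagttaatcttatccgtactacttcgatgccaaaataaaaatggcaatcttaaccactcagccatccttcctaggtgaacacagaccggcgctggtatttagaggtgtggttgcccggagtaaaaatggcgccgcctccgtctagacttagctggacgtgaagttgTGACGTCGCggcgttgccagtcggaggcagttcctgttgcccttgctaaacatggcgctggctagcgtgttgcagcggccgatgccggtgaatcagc
Psmb6: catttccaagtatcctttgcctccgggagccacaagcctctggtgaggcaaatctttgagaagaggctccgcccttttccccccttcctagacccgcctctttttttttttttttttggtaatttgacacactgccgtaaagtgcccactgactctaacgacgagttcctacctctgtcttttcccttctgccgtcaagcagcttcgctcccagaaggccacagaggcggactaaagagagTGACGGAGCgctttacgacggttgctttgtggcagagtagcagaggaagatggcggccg
Windows were listed for 38 of the 46 genes, 41 windows in all, and 6 of them (14.6%) held the core on either strand, those of Psmb5, Psmb6, Psmc6, Psmd9, Psmd12 and Psme4. Among all 32851 windows of the same length the share was 12.4%. CCAAT was found in 13 of the 41 windows (31.7%), and in 37.4% of all windows. These are matches of letters and say nothing of whether a factor is bound.

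The share of a cell's gene counts that fell on the 46 genes differed between sets. Over the summed counts it was 0.714% in fresh cells of pool IM793, 0.655% at 6 hours and 0.538% at day 2. In pool IM834 it was 0.624% in fresh cells, 0.429% at day 1, 0.526% at day 3 and 0.532% at day 4, and the 14 cells of day 4 in pool IM790 gave 0.649%. The 2 cells of day 4 in pool IM793 gave 0.879%. Each preserved set with at least 19 cells thus lay below the fresh set of its own pool (no fresh cells come from pool IM790), with log2 ratios of -0.13 and -0.41 in pool IM793 and -0.54 and -0.25 at days 1 and 3 in pool IM834. The median share of mitochondrial counts was 2.02%, 2.51% and 3.11% in fresh, 6 hour and day 2 cells of pool IM793, and 3.88%, 3.15%, 3.02% and 4.601% in fresh, day 1, day 3 and day 4 cells of pool IM834. With mitochondrial genes left out of the totals the log2 ratios were -0.12, -0.39, -0.55 and -0.25 at 6 hours, day 2, day 1 and day 3. Any other part of the mitochondrial share in the result was not tested. The 2 fresh sets themselves differed by 0.19 on the log2 scale. Single cells spread far more widely, from 0.0250% to 1.34% with a median of 0.708% in fresh cells of pool IM793 and from 0.142% to 1.52% with a median of 0.576% in those of pool IM834. The libraries carried no molecular barcodes and PCR copies may remain, so exact Poisson intervals, such as 0.712% to 0.716% for fresh cells of pool IM793, cover counting error alone.

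**Figure D2:**
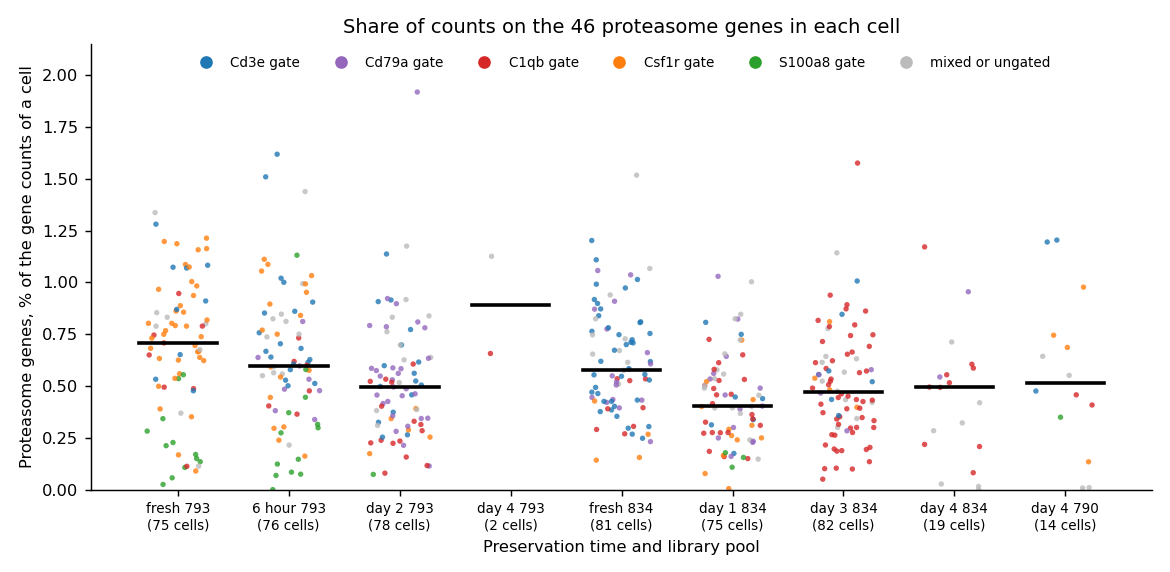
Each point is a cell, placed by its set and by the percent of its gene counts on the 46 genes, with bars for the medians and colours for gates. Medians are 0.708%, 0.598% and 0.497% for fresh, 6 hour and day 2 cells of pool IM793, and 0.576%, 0.401% and 0.470% for fresh, day 1 and day 3 cells of pool IM834, with wide overlap of cells.

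The makeup of the sets by cell type moved with time as well. Of the fresh, 6 hour and day 2 cells of pool IM793, 38, 18 and 5 had the macrophage and monocyte gene Csf1r without C1qb, and 0, 8 and 29 had the B cell gene Cd79a. Of the fresh, day 1 and day 3 cells of pool IM834, 41, 7 and 7 had the T cell gene Cd3e and 8, 22 and 55 the macrophage gene C1qb. Differences between whole sets therefore mix cell types, and values within cell types follow further on. Fewer cells of a type and less RNA per cell cannot be told apart in the sums.

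Fewer different proteasome genes were read per cell at 6 hours and day 2 of pool IM793 than in fresh cells. After thinning every cell to 100000 counts, a median of 20 of the 46 genes was read in fresh cells, 13 at 6 hours and 8 at day 2, while the 2 cells of day 4 had a median of 23. In pool IM834 the medians were 11 in fresh cells, 10 at day 1, 10 at day 3 and 7 at day 4. Genes of every kind gave the same order in pool IM793, with medians of 2206.5, 1689 and 1282 thinned genes per cell, whereas pool IM834 had 1555, 1653.5, 1437 and 1047 in fresh, day 1, day 3 and day 4 cells. The part of this general difference in the proteasome result was not tested.

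Gene by gene, sets were compared by the mean of log2(rpm + 1) over cells, where rpm is the same scaling in a single cell. At day 2 of pool IM793, 34 of the 44 genes with at least 50 counts on both sides were lower by at least 1 than in fresh cells and 0 were higher, against 21.9% lower and 2.8% higher of all 9864 genes. At 6 hours 14 of 44 were lower and 0 higher, against 10.9% and 1.38% of 10346 genes. In pool IM834, 5 of 44 were lower and 0 higher at day 1, against 5.56% and 6.21% of 9492 genes, and 9 of 44 were lower and 0 higher at day 3, against 10.2% and 4.18% of 9325 genes. The median of the members was -0.67, -1.54, -0.26 and -0.34 in these comparisons (6 hours, day 2, day 1 and day 3), while that of all genes was -0.14, -0.33, 0.04 and -0.09. The proteasome genes were also read in more cells to begin with, a median of 42.6% of fresh cells of pool IM793 against 14.9% for all genes at 6 hours, and 23.1% against 10% in pool IM834, so the shares are not like for like. The part of that starting level in the result was not tested. Comparisons at 6 hours and day 2 share their fresh cells, as do those at days 1 and 3.

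**Figure D3:**
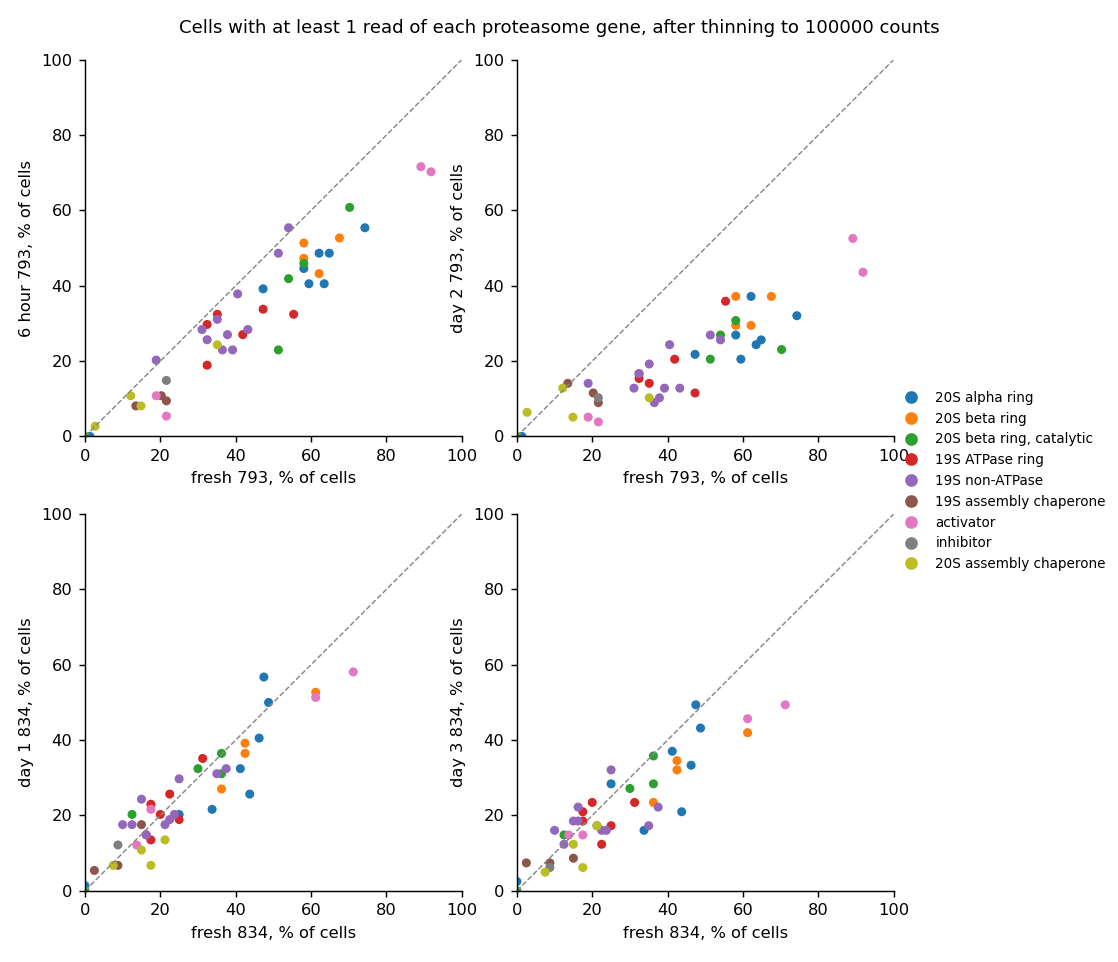
Each point is 1 of the 46 genes, placed by the percent of fresh cells (x) and of preserved cells (y) of the same pool with at least 1 read after thinning to 100000 counts. Over the 44 genes compared the median change was -11.5 and -24.9 percentage points at 6 hours and day 2 and -2.65 and -3.97 at days 1 and 3, beside -2.70, -5.82, 0.68 and -1.30 for all genes.

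Psme2 had the lowest difference of the 44 genes at 6 hours, day 2 and day 3. It was read in 68 of 75 fresh cells of pool IM793 (90.7%, exact Clopper-Pearson interval 81.7% to 96.2%), in 56 of 76 at 6 hours (73.7%, 62.3% to 83.1%) and in 36 of 78 at day 2 (46.2%, 34.8% to 57.8%). In pool IM834 it was read in 58 of 81 fresh cells (71.6%, 60.5% to 81.1%), 46 of 75 at day 1 (61.3%, 49.4% to 72.4%) and 40 of 82 at day 3 (48.8%, 37.6% to 60.1%). These intervals cover the sampling of cells from 1 set alone and not the spread between mice, so they give no comparison between times.

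The summed level of Psme2 was 742, 417 and 243.1 CPM in fresh, 6 hour and day 2 cells of pool IM793, and 346, 218.4 and 180 CPM in fresh, day 1 and day 3 cells of pool IM834. The log2 ratios of the sums were -0.83, -1.61, -0.66 and -0.94, and the differences of mean log2(rpm + 1) were -2.13, -4.69, -1.27 and -2.24, in the order 6 hours, day 2, day 1 and day 3. Psme1 gave 655, 594 and 378 CPM in pool IM793 and 367, 193.9 and 185.3 CPM in pool IM834, with reads in 88%, 72.4% and 53.8% and in 62.96%, 56% and 48.8% of cells. Both PA28 genes were thus lower in each of these preserved sets than in the fresh set of the same pool. Over all sets Psme2 was at 630.4 CPM in cells with Csf1r, 358.3 with Cd3e, 252.6 with Cd79a and 218.4 with C1qb. Cells of each kind came from different times and pools, so these levels differ in time as well. In pool IM793 cells with Csf1r became fewer and cells with Cd79a more with time. In pool IM834 the fresh, day 1 and day 3 sets held 41, 7 and 7 cells with Cd3e and 8, 22 and 55 with C1qb. The same sets held 4, 12 and 4 cells with Csf1r and 17, 14 and 4 with Cd79a. The part of this makeup in the levels of Psme2 and Psme1 was not tested. In the 19 cells of day 4 in pool IM834 the PA28 genes parted, with Psme2 at 437.98 and Psme1 at 99.95 CPM. The level of Psme2 is uncertain, since a near-identical row, Psme2b, held 11.01 counts for every 100 of Psme2 and 301 of its 304 cells also had Psme2 reads.

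The other activators and the inhibitor were read in few cells and had no common order. In fresh, 6 hour and day 2 cells of pool IM793 Psme3 was at 45.2, 13.6 and 9.11 CPM, Psme4 at 37.04, 14.9 and 22.9, and Psmf1 at 47.2, 67.01 and 35.8. In fresh, day 1 and day 3 cells of pool IM834 Psme3 was at 60.4, 105.25 and 105.28 CPM, Psme4 at 24.1, 14.6 and 49.6, and Psmf1 at 43.8, 70.5 and 16.2. Psme3 was thus lower than in fresh cells at 6 hours and day 2 of pool IM793 and higher at days 1 and 3 of pool IM834.

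Psmb10 was at 313 CPM in fresh cells of pool IM793, 295 at 6 hours and 130 at day 2, and 70.7%, 61.8% and 23.1% of cells had a read. Over all sets Psmb10 was read in 67.1% of cells with Csf1r and 27.03% of cells with Cd79a. These cells came from different times and pools, so the shares differ in time as well, and the part of makeup in the level of Psmb10 was not tested. In pool IM834 Psmb10 was at 120 CPM in fresh cells, 63.3 at day 1 and 117.4 at day 3. Psmb7, the subunit it replaces, was at 75.3, 76.9 and 74.7 CPM in pool IM793 with reads in 52%, 22.4% and 20.5% of cells. Psmb6 was at 192.2, 244.8 and 193.4 CPM and Psmb5 at 71.2, 79.1 and 49.3 CPM in fresh, 6 hour and day 2 cells of pool IM793. In pool IM834 Psmb6 was at 161.6, 107.2 and 153.5 CPM and Psmb5 at 27.8, 27.9 and 20.5 CPM in fresh, day 1 and day 3 cells. Psmb10 reached a log2 ratio of -1.27 at day 2, and no log2 ratio of Psmb5, Psmb6 or Psmb7 against fresh cells was as large as 1 in size in these 4 comparisons.

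By sums of counts, in which a few cells can decide a gene, most members stayed within 2-fold of fresh cells (a log2 ratio under 1 in size). At 6 hours 41 of 44 did, with 1 higher (Psmg2) and 2 lower (Psme3 and Psme4), against 21.5% higher and 15.1% lower of all genes. At day 2 of pool IM793, 35 of 44 did, with 3 higher and 6 lower, against 27.1% and 18.4%. The lower genes were Psme3 (-2.31), Psme2 (-1.61), the deubiquitinase Psmd14 (-1.29), Psmb10 (-1.27), Psma5 (-1.24) and Psma7 (-1.12). The higher ones were assembly chaperones, Psmg2 (3.18), Psmg1 (2.77) and Psmd5 (1.47), each read in 14.1% of day 2 cells or fewer, and 56.2% of the day 2 counts of Psmg1 came from 1 cell.

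In pool IM834, 36 of 44 genes stayed within 2-fold at day 1, with 1 higher and 7 lower, against 20.1% and 21% of all genes. Without the cell holding most counts of each gene, 16 in place of 8 were past 2-fold, with no share of all genes given for this setting. The lower genes were Psmg1 (-1.57), Psma5 (-1.53), Psma6 (-1.53), Psmd7 (-1.50), Psmd10 (-1.36), Psmd11 (-1.06) and Psmd12 (-1.03), and the higher one Psmd9 (1.15), which was read in 2.47% of the fresh cells. At day 3, 34 of 44 stayed within 2-fold, with 3 higher and 7 lower, against 21.1% and 22.4%. Psma5 (-1.41) and Psma6 (-1.08), both alpha subunits, were among the lower genes, with Psmg1 (-1.88), Psmd1 (-1.71), Psmf1 (-1.43), the ATPase Psmc5 (-1.36) and Psmd5 (-1.19). The higher genes were Psmg4 (1.07), Psme4 (1.04) and Psma4 (1.01). Psma5 was at 268.7, 200.5 and 114.01 CPM in fresh, 6 hour and day 2 cells of pool IM793 and at 163.5, 56.4 and 61.5 CPM in fresh, day 1 and day 3 cells of pool IM834. The median log2 ratio of the members was -0.10, -0.25, -0.57 and -0.22 at 6 hours, day 2, day 1 and day 3, and that of all genes was 0.16, 0.23, -0.08 and -0.08.

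The fresh sets of the pools, compared with each other, give a measure of what differs without preservation. They may share an animal, so spread between mice may be missing from it. They also differ in makeup, with 9 and 41 cells with Cd3e and 38 and 4 with Csf1r in pools IM793 and IM834. By sums of counts, pool IM793 was higher than pool IM834 by at least 2-fold for 7 of 44 genes and lower for 4, against 19.1% and 28.2% of all genes. By the mean of log2(rpm + 1), 25 of 44 were higher by at least 1 in pool IM793 and 1 lower, against 17.1% and 4.5% of all genes, with a member median of 1.13. The difference between fresh sets was thus larger in size by this median than that of 6 hours, day 1 or day 3 against fresh, and smaller than that of day 2. By sums the higher genes were Psmd9 (1.46), Psmb4 (1.42), Psmb10 (1.38), Psmb5 (1.36), Psmg4 (1.27), Psmd13 (1.24) and Psme2 (1.10), and the lower ones Psmg1 (-4.59), Psmg2 (-3.12), Psmd5 (-1.35) and Psmd6 (-1.03). Psmg2 alone was at 8.70 CPM in fresh cells of pool IM793 and 75.8 in those of pool IM834. At day 4 of pool IM834, with 19 cells, 38 members had enough counts to compare with day 3, and 7 were higher and 9 lower, against 30% and 21.1% of all genes. In these day 4 cells 1 cell gave a median of 70.95% of the counts of a member.

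The cells were next gated by marker genes at 50 rpm or more: Cd3e (20.3% of cells), Cd79a (14.7%), C1qb (25.3%), and Csf1r without C1qb (16.9%). Cells with none of these and at least 1000 rpm of S100a8 formed an S100a8 gate (30 cells), 82 cells were in no gate and 2 had markers of several lineages. At least 69.3% of C1qb gate cells had reads of each of 7 macrophage markers, at least 85.3% of Cd3e gate cells of each of 5 T cell markers and at least 75.7% of Cd79a gate cells of each of 5 B cell markers. The S100a8 gate had reads of each of 6 neutrophil markers in at least 53.3% of cells. In at least 25% of its cells 1 of 5 T cell markers (Cd3d, 33.3%) was also read. So were 2 of 5 monocyte and dendritic markers, with Plac8 highest at 56.7%. The Csf1r gate was not uniform either. Of 5 monocyte and dendritic markers 4 were read in at least 25% of its cells, from Flt3 at 7.06% to Plac8 at 85.9%. Of 6 neutrophil markers 2 were, from G0s2 at 8.24% to Csf3r at 58.8%. Of 9 kidney epithelium markers none was read in 25% of the cells of a gate, the highest being Fxyd2 at 21.3% in the C1qb gate. Ptprc, which encodes Cd45, was read in 83.5% to 98.8% of the cells of each gate.

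S100a8 gate cells had the lowest share of proteasome counts, a median of 0.174% per cell. The medians were 0.434% in the C1qb gate, 0.525% in the Cd79a gate, 0.623% in the Cd3e gate and 0.638% in the Csf1r gate. A thinned cell of the S100a8 gate had reads of a median of 3 of the 46 genes, against 9 in the C1qb and Cd79a gates, 12 in the Cd3e gate and 16 in the Csf1r gate. These cells also had few genes of any kind, an unthinned median of 1053 against 1793 to 2303 in the other gates, and whether that sets their share was not tested. In the 2 sets with at least 5 such cells, both of pool IM793, their summed share was 0.242% in fresh cells and 0.301% at 6 hours, against 0.689% and 0.546% in the C1qb gate. Against that low background Psmb10 stood at 217.2 and Psme2 at 441 CPM in S100a8 gate cells, above their 171.4 and 358 CPM in Cd3e gate cells, while Psmb5 was at 16.7 and Psmb6 at 34.8 CPM against 62.2 and 220.95. The PA28 partner Psme1 had the other order, at 305.1 CPM in S100a8 gate cells and 448.9 in Cd3e gate cells. All 3 genes were read in a smaller share of S100a8 gate cells than of Cd3e gate cells, 30% and 38.2% for Psmb10, 60% and 70.6% for Psme2, and 43.3% and 70.6% for Psme1. The gates drew their cells from different sets, so these levels differ in time and pool as well.

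Within sets, Cd3e gate cells had a higher share than C1qb gate cells in 6 of 6 sets. The summed shares were 0.871% and 0.689% in fresh cells of pool IM793, 0.780% and 0.546% at 6 hours, 0.624% and 0.330% at day 2, 0.647% and 0.413% in fresh cells of pool IM834, 0.479% and 0.392% at day 1, and 0.622% and 0.493% at day 3. The log2 ratio of C1qb to Cd3e gate ran from -0.92 to -0.29 with a median of -0.43, and from -0.95 to -0.31 without 18S rRNA in the totals. Against the Cd79a gate, the C1qb gate was lower in 3 of 4 sets, with ratios from -0.83 to 0.08. The Cd79a gate was lower than the Cd3e gate in 4 of 4 sets, but 1 ratio was as small as -0.02. Csf1r and C1qb gates had no fixed order, with ratios from -0.25 to 0.43 in 4 sets. The Csf1r gate was lower than the Cd3e gate in 4 of 4 sets by summed share, with ratios from -1.07 to -0.08. By the median per cell it was lower in 3 of 4.

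**Figure D4:**
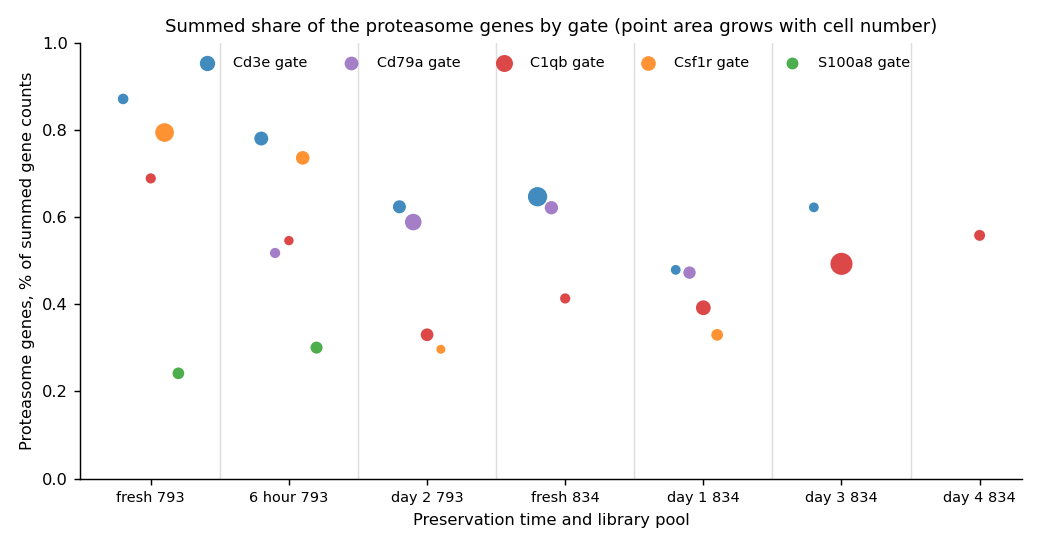
Points give the summed counts of the 46 genes as a percent of all gene counts for each gate with at least 5 cells of a set, with area growing with the number of cells. Cd3e gate points are the highest of each of the 6 sets that hold them, from 0.479% to 0.871%, and S100a8 gate points lie at 0.242% and 0.301%.

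Within pool IM793 the Cd3e, C1qb and Csf1r gates kept the order of the sets, and the Cd79a and S100a8 gates did not. From fresh to 6 hours to day 2 the median share per cell was 0.910%, 0.681% and 0.543% in the Cd3e gate, 0.679%, 0.538% and 0.284% in the C1qb gate and 0.778%, 0.760% and 0.288% in the Csf1r gate. The Cd79a gate was at 0.509% at 6 hours and 0.530% at day 2, and the S100a8 gate at 0.191% fresh and 0.274% at 6 hours. The median number of proteasome genes read per thinned cell was 21, 13 and 8 in the Cd3e gate, 26.5, 13 and 7 in the C1qb gate and 19.5, 16.5 and 5 in the Csf1r gate. Thinned genes of every kind had medians of 1843, 1642 and 1256.5 in the Cd3e gate and 2953, 2043 and 1543 in the C1qb gate. In the Csf1r gate they were 2206.5, 2051 and 1366, and the part of this general fall was not tested. The Cd3e, C1qb and Csf1r gates held 5 to 38 cells in these sets. In pool IM834 the medians of fresh, day 1 and day 3 cells were 0.619%, 0.439% and 0.555% in the Cd3e gate and 0.393%, 0.388% and 0.431% in the C1qb gate, so in the C1qb gate fresh cells lay between day 1 and day 3. The Cd79a gate of pool IM834 was at 0.549% fresh and 0.430% at day 1. Thinned fresh, day 1 and day 3 cells of this pool had medians of 12, 10 and 10 proteasome genes in the Cd3e gate. The C1qb gate had 9.5, 10 and 8.5.

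The PA28 genes and Psmb10 followed no single order within gates. Psme2 was at 391.3, 412.4 and 178.3 CPM in the Cd3e gate and 498.8, 376.8 and 161.01 in the C1qb gate of fresh, 6 hour and day 2 cells of pool IM793. In the Csf1r gate it was at 939.2 and 525.7 CPM in fresh and 6 hour cells, and no read was found in the 5 cells of day 2. In pool IM834 it was at 430.1, 199.2 and 284.99 CPM in the Cd3e gate but at 131.1, 147.2 and 154.9 in the C1qb gate of fresh, day 1 and day 3 cells, and at 250.8 and 269.7 in the Cd79a gate of fresh and day 1 cells. Psme2 was thus lower than in fresh cells at day 2 in all 3 gates of pool IM793, while in pool IM834 it was lower in the Cd3e gate and not in the C1qb or Cd79a gate.

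Psme1 was at 371.1, 645.6 and 411.9 CPM in the Cd3e gate, 643.2, 729.6 and 238.6 in the C1qb gate and 840.9, 739.5 and 434.95 in the Csf1r gate of pool IM793. In pool IM834 it was at 415.6, 164.9 and 274.8 CPM in the Cd3e gate, 257.6, 208.7 and 162.7 in the C1qb gate and, fresh and at day 1, 363.3 and 150.8 in the Cd79a gate, lower than fresh in each. Psmb10 was at 137.7, 288.5 and 242.05 CPM in the Cd3e gate, 322.1, 212.5 and 74.79 in the C1qb gate and 386.8, 500.7 and 188.3 in the Csf1r gate of pool IM793. At day 2 it was thus below fresh in the C1qb and Csf1r gates and above it in the Cd3e gate.

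Where both sets had at least 10 cells of a gate, single genes were compared as before. In the Csf1r gate at 6 hours 1 of 43 members was higher and 6 lower by at least 2-fold than in fresh cells, against 23.2% and 18.4% of all genes. In the S100a8 gate at 6 hours 9 of 23 were higher and 2 lower, against 25.9% and 25.6%. In the Cd79a gate at day 1, 8 of 32 were higher and 8 lower, against 25.2% and 23.8%, and in the C1qb gate at day 4 against day 3, 9 of 31 were higher and 5 lower, against 39.8% and 15.4%. In sums this small a single cell often held most counts of a gene, so these counts describe the cells sampled.

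Gates were compared with a test in which the sets served as replicates. Whether the fresh sets of both pools came from separate mice is not stated in the labels, so they may share an animal. edgeR's quasi-likelihood test on counts summed over at least 5 cells, with the set as a block, called 0 of 45 members at an adjusted p under 0.05 in each of 4 contrasts, and 0 had an unadjusted p under 0.05. On made data with known changes between the C1qb and Cd3e gates this test called 0 of 50 genes at a log2 fold of 1 and 0 of 49 at 2. It called 1 of 50 at a log2 fold of 4 and 20 of 50 at 8, so the 0 says little about the members. Of all 13190 genes it called 3.93% between the C1qb and Cd3e gates (6 sets), 1.83% between C1qb and Cd79a (4 sets), 1.08% between Cd79a and Cd3e (4 sets) and 0.121% between Csf1r and C1qb (4 sets). The median log2 fold change of the members was -0.29 for C1qb against Cd3e, -0.27 for C1qb against Cd79a, 0.20 for Cd79a against Cd3e and -0.09 for Csf1r against C1qb, beside 0.36, 0.22, 0.11 and -0.21 for all genes. Single members ran from -4.78 to 7.79, -6.75 to 7.41, -5.15 to 6.23 and -8.16 to 4.85 in the same order.

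A fit with limma to the mean of log2(rpm + 1) over the cells of each sum, added after these results were seen, weighs cells evenly and called 22.1%, 16.2%, 7.42% and 9.67% of 6401 genes in the same 4 contrasts. Of 40 members it called 1, 0, 1 and 0, and 4, 0, 4 and 3 had an unadjusted p under 0.05. Psmg1, Psmg3, Psmd9, Psmd10, Psma8 and Psmb11 were read in too few cells to be tested. Psmd4, the ubiquitin receptor of the cap, on chr3:95032694-95042614, was lower in the C1qb gate than in the Cd3e gate by 1.33 on the log2 scale (log2 difference -1.33, SE 0.466, limma adjusted p 0.0423). Its mean log2(rpm + 1) in the Cd3e and C1qb gates was 6.16 and 4.601 in fresh cells of pool IM793, 5.49 and 4.66 at 6 hours, 3.13 and 2.14 at day 2, 3.18 and 2.00 in fresh cells of pool IM834, 2.88 and 1.70 at day 1, and 3.42 and 1.21 at day 3. It was thus lower in C1qb gate cells in each of these sets, though the ranges over sets overlap. The difference was -1.52 to -1.16 when 1 set was left out. The call was lost without fresh, 6 hour or day 2 cells of pool IM793 or day 1 or day 3 cells of pool IM834, with adjusted p of 0.0800 to 0.117, and edgeR gave -1.04 (SE 0.637, adjusted p 0.475).

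Psmg2, a chaperone of the alpha ring, was lower in the Cd79a gate than in the Cd3e gate (log2 difference -1.20, SE 0.365, limma adjusted p 0.0464). Its mean log2(rpm + 1) in the Cd3e and Cd79a gates was 1.86 and 0.92 at 6 hours, 2.35 and 0.63 at day 2, 1.86 and 0.93 in fresh cells of pool IM834, and 2.40 and 0.59 at day 1. Cd3e gate values lay above Cd79a gate values in all 4 sets, without overlap. Psmg2 was read in 25.5% of Cd3e gate cells and 10.8% of Cd79a gate cells. When 1 set was left out the difference was -1.31 to -1.03 and the limma adjusted p ran from 0.0348 to 0.223. The call was lost without fresh cells of either pool or without 6 hour, day 2 or day 1 cells. edgeR gave -2.55 (SE 2.05, adjusted p 0.858).

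In the contrast of C1qb with Cd3e gate, 39 of 40 members did not pass the limma test. Psmg2 lay near the threshold (-0.99, SE 0.361, limma adjusted p 0.0505) and passed without day 1, day 3 or day 4 cells of pool IM834 (adjusted p 0.0172, 0.0425 and 0.0412), with 0.0778 to 0.210 without any other set. In this contrast 35 of 40 differences were under 1 in size, beside 71% of all genes. The largest that did not pass were Psma7 (1.45, SE 0.61, adjusted p 0.0936), Psma4 (-1.29, SE 0.60) and Psmb2 (1.21, SE 0.61). The catalytic subunits gave -0.59 (SE 0.52) for Psmb5, 0.07 (SE 0.64) for Psmb6, 0.22 (SE 0.63) for Psmb7 and 1.12 (SE 0.61) for Psmb10, and the PA28 genes -0.50 (SE 0.55) for Psme1 and 0.06 (SE 0.64) for Psme2. The median SE was 0.55, so a p that misses the threshold does not show equal levels.

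**Figure D5:**
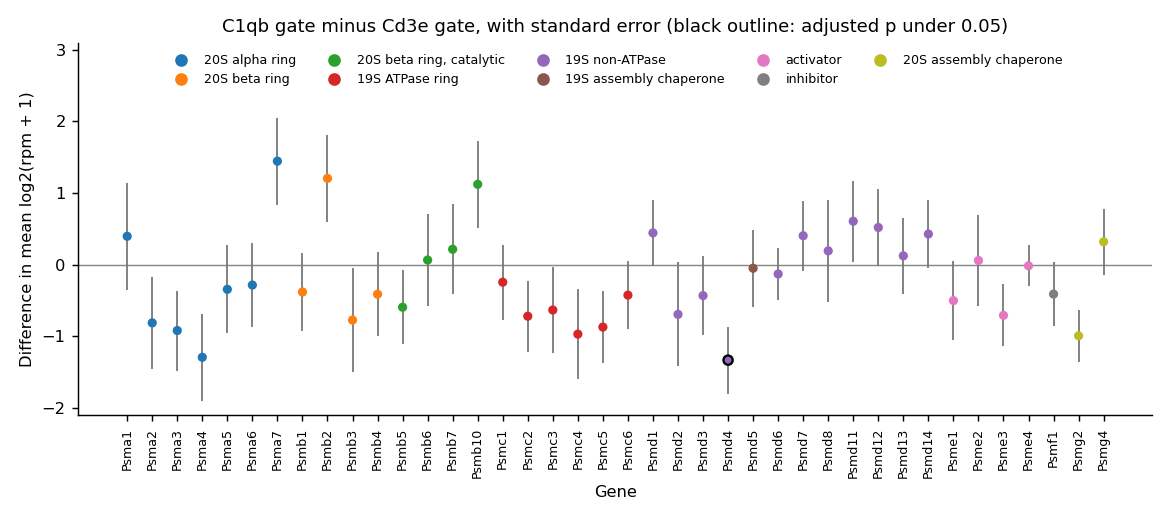
Points show the difference in mean log2(rpm + 1) between C1qb and Cd3e gates from limma for the 40 genes tested, with bars of 1 SE and colours by role. Psmd4 at -1.33 is the gene outlined as past the threshold, and values run from -1.33 to 1.45.

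Of 25 partners, regulators and shuttles of the proteasome tested by limma, 4 were higher in the C1qb gate than in the Cd3e gate and 0 lower, beside the 22.1% of all genes called. They were the transcription factor Nfe2l2 (2.45, SE 0.603, adjusted p 0.00389), the cap-bound deubiquitinase Usp14 (1.42, SE 0.337), Ddi2, the protease that activates Nfe2l1 (1.62, SE 0.429), and the zinc-finger protein Zfand5 (2.10, SE 0.589). Nfe2l2 (2.99, SE 0.659) and the shuttle Ubqln4 (0.94, SE 0.302) were higher in the C1qb than in the Cd79a gate. Between Cd79a and Cd3e gates the 1 gene past the test was Psmb8, lower in Cd79a gate cells by 2.73 on the log2 scale (log2 difference -2.73, SE 0.647, limma adjusted p 0.00732), and in the contrast of Csf1r with C1qb gate there was none. Psmb8 was read in 77.5% of Cd3e gate cells and 44.6% of Cd79a gate cells, at 890 and 387 CPM. edgeR called 0 of 30 genes of this list in each contrast, with the same limit as for the members.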

How the data were processed

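Single cells were sorted from pooled kidneys and sequenced as full-length cDNA libraries. The deposited values are raw read counts per gene and cell. To make them the authors trimmed reads to 75 bases, removed duplicates with picard, aligned with STAR to GRCm38 and counted with HTSeq without strand; the sources used here give no version of these tools. Rows of spike-ins (0.000185% of counts) and a vector (0.139%) were left out. Cells were grouped by the time and pool in their labels, which name no animal, so cells were not replicates.

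Here counts were summed per set, or per set and gate with at least 5 cells, using Python 3.11.15, numpy 2.4.6, pandas 2.3.3 and scipy 1.17.1. Times were compared without a test among genes with at least 50 counts on both sides. Gates were tested in R 4.3.3 with edgeR 4.0.16 (TMM, quasi-likelihood, set as block) and Benjamini-Hochberg adjustment over all genes; p measures the spread between sets, which differ in time or pool and may share an animal. limma 3.58.1 and DESeq2 1.42.0 were alternatives. Scripts were tested on made data with known answers. Thinning to 100000 counts left out 8 shallower cells. Exon lengths came from GENCODE M21, as the bases covered by any exon of a gene. Named genes were all catalytic, activator and inhibitor members, and other members past a threshold. The members and lists were chosen with earlier results of these data known.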

Additional observations from a re-analysis of the deposited data

Results flagged for a closer look

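Reads were also found on rows close to the proteasome genes but outside the name rule. Psme2b, a near-identical copy of Psme2, held 14344 counts in 304 cells, and 301 of these cells also had reads of Psme2. The pseudogene rows Psmb5.ps and Psmb6.ps2 held 24 and 18 counts. These rows entered no comparison, and their part in the levels of Psme2, Psmb5 and Psmb6 was not tested.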

How the results depend on the processing

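Counts of members past 2-fold between times depended on how cells were weighed. With the mean of log2(rpm + 1) over cells the count was 14 in place of 3 at 6 hours, 34 in place of 9 at day 2, 5 in place of 8 at day 1, 9 in place of 16 for day 4 against day 3, and 26 in place of 11 between the fresh sets. Within the Csf1r and S100a8 gates at 6 hours it was 13 in place of 7 and 6 in place of 11. Without the cell holding most counts of each gene, the day 1 count was 16. With at least 200 counts on both sides it was 9 in place of 14 in the C1qb gate at day 4, 4 in the Csf1r gate and 3 in the S100a8 gate, where fewer genes could be compared. For the other changes the cause was not tested. Shares of all genes are not given here for day 4, for the gates, for 200 counts or without the top cell. These counts can therefore not be told apart from changes in genes of every kind.

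Between gates, edgeR with no replicate block for the set called 1 member for C1qb against Cd3e (Psma8, read in 6 cells) and 0 in the other contrasts, beside 7.96%, 3.15%, 1.8% and 0.561% of all genes. DESeq2 called 1 for C1qb against Cd79a (Psmg3) and 1 for Csf1r against C1qb (Psme3), beside 21.9% and 13.3% of all genes. limma, chosen after seeing the data, called 1 for C1qb against Cd3e and 1 for Cd79a against Cd3e. With a gate threshold of 10 rpm the S100a8 and C1qb gates could be tested, and edgeR called Psmc5 lower in the S100a8 gate (adjusted p 0.0498), beside 0.945% of all genes. Leaving out each set in turn, edgeR again called 0, which says nothing of stability, since on made data it called 2% of genes with a log2 change of 4. Sums of at least 10 cells were not run, since fewer than 3 sets hold both gates. No label marks a shared animal, so the set was the only pairing.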
